A study of Sus scrofa with 23 samples.

Results

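RNA of the trophectoderm (TE) of cloned porcine blastocysts was compared with RNA of the TE of in vivo fertilized blastocysts, and the genes that differed the same way in both clone libraries were described. Levels were FPKM, fragments scaled to the length of the gene and to the depth of the library. A gene was chosen when log2 of FPKM plus 1 lay more than 1 above, or more than 1 below, the in vivo library in both clone libraries, with FPKM of at least 1 in 1 library of each pair. This gave 289 of the 8603 genes of the table, of which 111 were higher in both clone libraries and 178 were lower in both. A symbol was given for 85 of the higher and 137 of the lower genes.

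In vivo embryos (IV-D) were pure Duroc, sired by 1 Duroc boar and flushed from sows after artificial insemination. Clones were made by nuclear transfer of ear fibroblasts of 1 Duroc boar (NT-D) or 1 Laiwu boar (NT-LW), a Chinese breed. Both donors were 1-year-old, and per the paper the Duroc donor was also the sire of the IV-D embryos. The recipient oocytes were matured in vitro from ovaries of hybrid sows, and clones were cultured in PZM3 medium at low oxygen. Each clone group therefore stood for 1 donor animal, and donor nucleus, oocyte source and culture differed together between clones and IV-D, so that their parts cannot be told apart. Blastocysts were cut by hand into a piece of TE alone and a piece that held the inner cell mass (ICM) with TE, called IT, and each library came from a pool of embryos. Sex was not determined for the in vivo pools, whereas the clones were male. There was 1 library for each condition, so no spread between embryos was measured and no difference could be tested. Both clone libraries were set against the same IV-D TE library, and a feature of that single library would appear in both comparisons. In such pools, fewer cells of a type and less RNA per cell cannot be told apart.

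The TE is the outer epithelium of the blastocyst. It pumps fluid into the cavity, takes up and stores nutrients and founds the fetal part of the placenta. In secreting cells, unfolded proteins in the endoplasmic reticulum (ER) free the sensors ATF6, IRE1 and PERK from the chaperone HSPA5 (BiP). The factors that follow raise ER chaperones, disulfide isomerases and parts of the degradation machinery, in part through the ER stress response element, a CCAAT box set apart by a fixed distance from CCACG. Germ cell genes such as those of meiosis and of the piRNA pathway form another class, of which many are silenced by DNA methylation in somatic cells such as the donor fibroblasts.

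Among the 111 higher genes, 80 had a promoter sequence in RefSeq (Sscrofa11.1, 250 bases before the annotated gene start), and 3 of them held the complete ER stress response element on either strand, namely CCAAT, 9 bases of any kind and CCACG. All 3 belong to the unfolded protein response list described below, of which 11 higher members had a promoter sequence. The other members of these 11, HSPA5 among them, did not hold the complete element in these 250 bases. No promoter of the 128 lower genes with a sequence held it, and across all 19500 protein-coding promoters of this length 14 did, or 0.0718%. The 3 promoters are shown because they hold the complete element. Capitals mark CCAAT and CCACG of each element, or their complements. CRELD2 lies on the minus strand with its promoter at chr5:716767-717016, HSP90B1 on the minus strand with its promoter at chr5:80531017-80531266, and PDIA6 on the plus strand with its promoter at chr3:125751829-125752078.
CRELD2: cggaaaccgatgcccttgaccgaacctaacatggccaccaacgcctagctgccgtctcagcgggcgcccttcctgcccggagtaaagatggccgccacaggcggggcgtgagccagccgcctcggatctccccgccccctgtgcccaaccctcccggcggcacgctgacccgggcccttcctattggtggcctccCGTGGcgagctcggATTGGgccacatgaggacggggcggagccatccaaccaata
HSP90B1: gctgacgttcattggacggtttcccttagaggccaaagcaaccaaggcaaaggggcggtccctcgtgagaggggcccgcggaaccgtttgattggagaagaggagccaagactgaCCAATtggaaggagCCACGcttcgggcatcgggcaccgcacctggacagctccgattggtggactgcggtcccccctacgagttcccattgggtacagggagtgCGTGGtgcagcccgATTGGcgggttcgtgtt
PDIA6: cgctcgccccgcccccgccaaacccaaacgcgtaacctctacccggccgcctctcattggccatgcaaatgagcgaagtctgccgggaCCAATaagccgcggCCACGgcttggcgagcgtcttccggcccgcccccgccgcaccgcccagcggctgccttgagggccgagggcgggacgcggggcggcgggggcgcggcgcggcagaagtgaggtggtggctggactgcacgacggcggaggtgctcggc
The HSP90B1 promoter held 2 elements, 1 on each strand, which began 135 and 31 bases before the gene start. The element of PDIA6 began 162 bases and that of CRELD2 55 bases before it. The motif was chosen after the values had been seen, and a match is a description of letters, not of binding.

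A CCAAT box was present in 39 of the 80 promoters of higher genes (48.8%), in 48 of the 128 of lower genes (37.5%) and in 31.9% of all protein-coding promoters. The letters TATAAA were present in 3 of the 80 (3.75%), 26 of the 128 (20.3%) and 9.75% of all. For the AP-1 letters TGANTCA the shares were 3.75%, 7.81% and 5.23%, and for the antioxidant response element TGACNNNGC they were 8.75%, 13.3% and 9.97%. The members came from the genes of the table, of which 6837 had a promoter sequence. Over these the shares were 34.4% (CCAAT), 7.53% (TATAAA), 3.91% (AP-1) and 11.3% (antioxidant response element).

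The TE libraries held 14952784 fragments (IV-D), 15596761 (NT-D) and 17654804 (NT-LW), and 96.8% to 97.2% of them fell on genes of the table. The defining keratins of TE were abundant in all 3. KRT8 measured 549 FPKM in IV-D, 735 in NT-D and 1033 in NT-LW, and KRT18 measured 582, 917 and 1593. GATA3, a transcription factor of TE, measured 14.03, 18.5 and 15.1 FPKM. Of 16 measured TE markers 2 were lower in NT-LW alone, among them PPARG (1.79, 0.537 and 0.0316 FPKM). NANOG, which marks the ICM, was at 0 in all 3 TE libraries and at 9.80, 5.00 and 3.76 FPKM in the IT libraries. Of 13 fibroblast markers in the table none reached the minimum level in both comparisons, and their summed level was 1.18, 0.273 and 3.70 FPKM. Of 19 oocyte transcripts UCHL1 alone reached it.

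The comparison counted 209 genes higher (3.13%) and 282 lower (4.23%) in NT-D among 6667 genes measured, and 423 higher (6.26%) and 691 lower (10.2%) in NT-LW among 6755, or 7.36% and 16.5% in both directions together. Between the clones 763 of 6669 genes differed, or 11.4%. Under scaling of the libraries by the median ratio, the NT-LW split turned to 566 higher and 497 lower. The median gene differed by −0.03 in NT-D and by −0.18 in NT-LW on the log2 scale, and differences are to be read against those shifts. Of 6593 genes measured in both comparisons, 1.68% were higher in both clone libraries and 2.70% lower in both, and 14 genes moved in opposite directions. For the higher genes the median difference from IV-D came to 1.41 (NT-D) and 1.69 (NT-LW), and for the lower genes to −1.55 and −1.70. Differences over 2 in both libraries were seen for 14 higher and 34 lower genes.

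**Figure D1:**
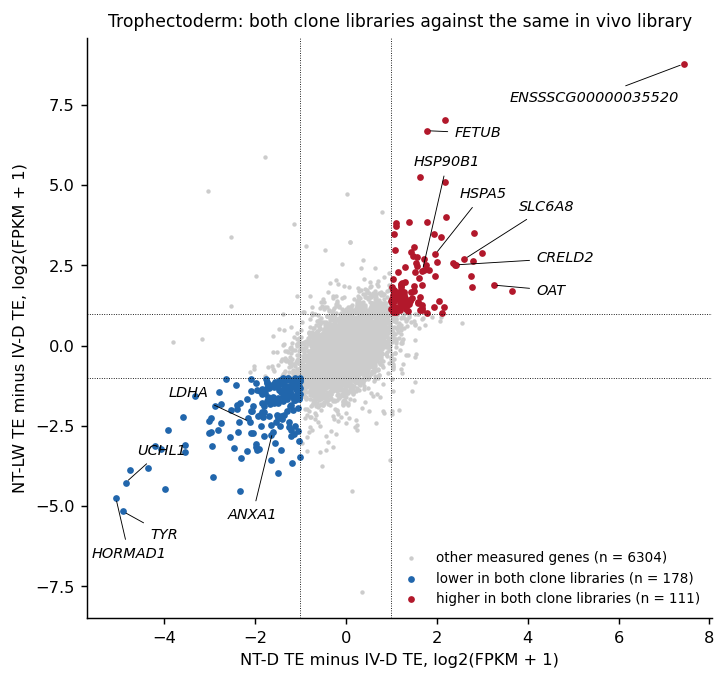
Difference of each measured gene from the IV-D TE library, as log2 of FPKM plus 1, in NT-D TE (horizontal axis) and NT-LW TE (vertical axis), 1 point per gene. The 111 genes higher in both clone libraries are red and the 178 lower in both are blue, and dotted lines mark differences of 1. Both axes subtract the same library.

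Among lists with at least 5 measured members, the unfolded protein response list had the largest median difference, with 11 of its 21 members in the table higher in both clone libraries and none lower in both. The median over its members came to 1.14 for NT-D and to 1.21 for NT-LW, against −0.03 and −0.18 over all measured genes. The summed level of the list was 1091 FPKM in IV-D TE, 2997 in NT-D TE and 4433 in NT-LW TE. The 11 members were the chaperones HSPA5, HSP90B1 and HYOU1, the co-chaperones DNAJB9 and DNAJB11, the disulfide isomerases PDIA3, PDIA4 and PDIA6, HERPUD1 of the degradation machinery, and the secreted or luminal factors MANF and CRELD2.

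HSPA5, the chief ER chaperone (chr1:265930044-265934959 in Sscrofa11.1), measured 172 FPKM in IV-D TE, 675 in NT-D TE and 1242 in NT-LW TE. It was thus 3.93-fold higher in NT-D (95% counting interval 3.82 to 4.04) and 7.22-fold higher in NT-LW (7.03 to 7.42). These intervals come from fragment numbers, cover counting error only and say nothing on variation between embryos. HSP90B1, the ER member of the HSP90 family, measured 241, 777 and 1221 FPKM, 3.23-fold (3.13 to 3.32) and 5.07-fold (4.93 to 5.21) above IV-D. CRELD2, whose promoter is shown above, measured 3.02, 20.4 and 22.0 FPKM, the largest fold of the list in NT-D at 6.78 (5.65 to 8.19). MANF, a secreted factor released under ER stress, measured 22.1, 91.8 and 140 FPKM. In each of these genes both clones lay above IV-D. In 10 of the 11 members the NT-LW difference was larger than the NT-D one, beside 80 of all 111 higher genes.

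The isomerases form disulfide bonds in new secretory proteins. PDIA6 measured 10.6 FPKM in IV-D TE, 37.4 in NT-D TE and 74.4 in NT-LW TE. PDIA4 measured 14.4, 41.7 and 106 FPKM, and PDIA3 measured 234, 547 and 775. The orders of the 3 libraries were the same for all 3 isomerases. HERPUD1, which serves ER-associated degradation, measured 40.6, 90.8 and 90.7 FPKM, with no difference between the clones.

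The other members of the list did not meet the rule. CALR, a calcium-binding chaperone, was called in NT-D alone with 64.2 FPKM in IV-D, 241 in NT-D and 120 in NT-LW, and its partner CANX in NT-LW alone with 62.9, 99.6 and 182 FPKM. XBP1, the factor downstream of IRE1, measured 55.7, 82.3 and 90.0 FPKM, and the sensor ATF6 measured 13.3, 17.3 and 12.1. PPP1R15A, which reverses the translational block set by PERK, measured 3.69, 2.27 and 1.17 FPKM. The ATF4 and amino acid list, the arm downstream of PERK, had 1 of 20 measured members higher in both (SLC1A5) and 2 lower in both (FGF21 and SHMT2), with medians of −0.05 and −0.29. The chaperones and isomerases thus had larger median differences than the ATF4 genes in these libraries.

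**Figure D2:**
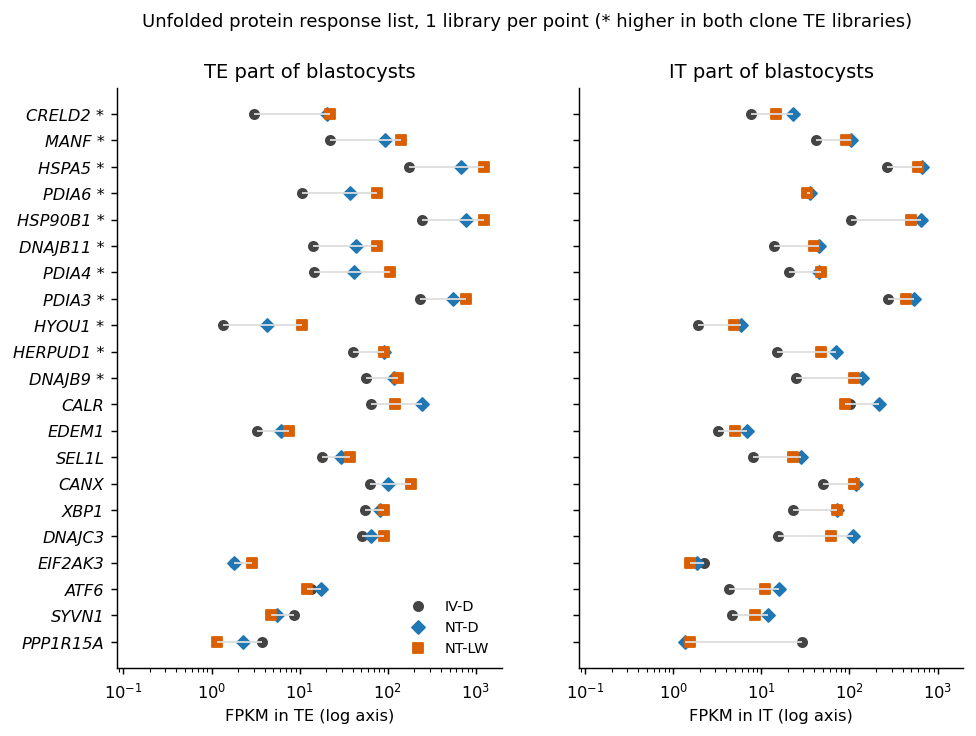
FPKM of the 21 members of the unfolded protein response list in the TE libraries (left) and IT libraries (right), on log axes, 1 library per point. Stars mark the 11 members higher in both clone TE libraries. HSPA5 and HSP90B1 are the highest points in NT-LW TE, at 1242 and 1221 FPKM.

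The same genes were read in the IT libraries, which the choice of members did not use. The IT piece also held TE, and its IV-D library stood apart, as described below. In IT 8 of the 11 members were again higher in both clone libraries than in IV-D, beside 33.6% of the 110 measured genes of the higher set. Of the whole list 13 of the 21 were higher in both, against 6.13% of all 7003 genes measured. PPP1R15A was lower in both, and the ATF4 list, in which 1 member was higher in TE, had 13 of its 21 genes in the table higher in both clone IT libraries and none lower. HSPA5 measured 266 FPKM in IV-D IT, 661 in NT-D IT and 600 in NT-LW IT, and HSP90B1 measured 104, 643 and 503. PDIA6 was alike in the IT libraries, at 34.4, 35.5 and 33.2 FPKM. In morulae no member was higher in both clones and 1 was lower, where 4.91% of all genes were higher and 1.56% lower. In 8-cell embryos the count was 0 higher and 3 lower, beside 8.95% and 13.5% of all genes. HSPA5 measured 140 FPKM in IV-D morulae, 58.8 in NT-D and 119 in NT-LW. Most of the 11 members were thus higher in clones in both pieces of the blastocyst. The morula and 8-cell counts of so short a list cannot be set apart from the shares of all genes. HSP90B1 was also above IV-D in both clones up to the 4-cell stage, where it measured 18.7 FPKM in IV-D, 61.6 in NT-D and 61.3 in NT-LW, and was below IV-D in morulae at 149.7, 88.5 and 85.0.

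**Figure D3:**
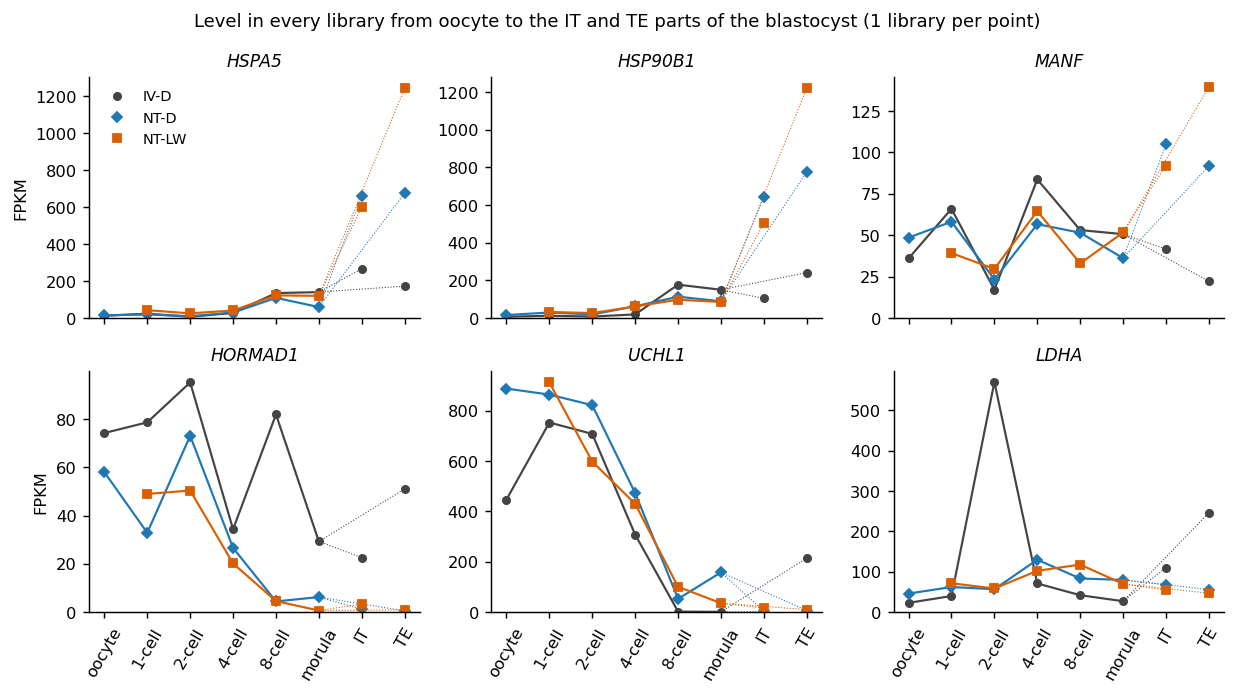
FPKM of 6 genes in every library from the oocyte to the blastocyst pieces, 1 library per point; the in vitro matured oocyte is drawn with NT-D and served both clone groups. HSPA5, HSP90B1 and MANF are above IV-D in both clones in IT and TE, HSP90B1 also up to the 4-cell stage, and HORMAD1 is low in both clone groups from the 8-cell stage and UCHL1 and LDHA are above both clones in IV-D TE.

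Further genes of the ER and secretory route, named here after their values were seen, met the rule as well. SELENOS, a selenoprotein of ER-associated degradation, measured 33.6 FPKM in IV-D TE, 83.6 in NT-D TE and 110 in NT-LW TE. DAD1, a subunit of the oligosaccharyl transferase, measured 183, 426 and 579 FPKM, and ERP44, which retains client proteins in the early secretory route, measured 59.9, 123 and 158. PPIB, an ER prolyl isomerase, measured 11.6, 29.0 and 37.1 FPKM. In all 4 the NT-D library lay between the other two.

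Genes of creatine, arginine and polyamine metabolism gave 3 higher members of 11 measured, beside 1.68% of all genes, and none lower. SLC6A8, the X-linked creatine transporter, measured 5.42 FPKM in IV-D TE, 38.1 in NT-D TE and 40.6 in NT-LW TE, a fold of 7.03 (6.201 to 7.999) and 7.48 (6.61 to 8.50). It had the largest difference of the named higher genes in the clone where it was smaller. CKB, the creatine kinase, measured 157, 340 and 498 FPKM, and ODC1, the first enzyme of polyamine synthesis, measured 141, 366 and 301. OAT, which converts ornithine to glutamate semialdehyde in mitochondria, measured 6.58, 71.1 and 27.0 FPKM and belonged to no list. ARG1, an arginase, did not meet the rule at 142, 260 and 204 FPKM. In IT the order was reversed for OAT, with 319 FPKM in IV-D, 61.7 in NT-D and 61.3 in NT-LW, and for CKB, with 2519, 311 and 307. SLC6A8 also lay below IV-D in both clones in IT (53.4, 38.2 and 37.0 FPKM), though within the limit. The same order held for it in morulae (93.5, 64.6 and 37.8) and 8-cell embryos (34.9, 4.44 and 4.35). ODC1 measured 494, 328 and 369 FPKM in IT. No member of the list was higher in both clone IT libraries and 1 was lower, beside 6.13% and 10.6% of all genes.

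Solute carriers had 9 of 99 measured members higher in both clones, beside 1.68% of all genes, and 3 lower, a share close to the 2.70% of all genes. SLC28A3, a nucleoside transporter, was the most abundant with 414 FPKM in IV-D TE, 966 in NT-D TE and 1584 in NT-LW TE. SLC2A2, a glucose transporter, measured 6.33, 29.3 and 18.1 FPKM, and SLC1A5, a glutamine transporter, measured 1.41, 6.97 and 11.2. The lower members were SLC3A1 (8.90, 2.71 and 1.05 FPKM), SLC36A2 (8.38, 2.21 and 0.156) and SLC20A1 (14.3, 2.63 and 4.78), carriers or partners for cystine, small amino acids and phosphate.

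Genes of uptake and secretion were also among the higher ones. LRP2, the large endocytic receptor megalin, measured 47.4 FPKM in IV-D TE, 111 in NT-D TE and 179 in NT-LW TE, and its chaperone LRPAP1 measured 174, 429 and 494. In IT LRPAP1 was lower in both clones, at 869 FPKM in IV-D, 301 in NT-D and 371 in NT-LW. CTSD, a lysosomal protease, measured 52.2, 189 and 269 FPKM. With LRP2 it made the 2 higher members among 21 measured genes of the lysosome and endocytosis list, beside 1.68% of all genes, in which none was lower in both. Among secreted proteins, named after their values were seen, APOA2, an apolipoprotein, measured 139, 409 and 833 FPKM, SERPINF1, an antiangiogenic serpin, measured 8.63, 40.1 and 99.9, and FETUB, a protease inhibitor of the fetuin family, measured 4.01, 16.2 and 519. FETUB in NT-LW was 129-fold above IV-D (105 to 162), against 4.04-fold (3.18 to 5.17) in NT-D. Other secreted proteins of these families went the other way. The apolipoproteins APOE and APOC3 and the serpin SERPINE2 were lower in both clones. APOE, also named after its values were seen, had log2 differences of −1.95 in NT-D and −1.39 in NT-LW.

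A few genes known from the ICM or the IT piece met the rule. SPIC, a transcription factor of the ICM list, had 2, 51 and 227 fragments in IV-D, NT-D and NT-LW TE, or 0.0841, 2.06 and 8.08 FPKM, a fold of 24.4 (6.43 to 207) in NT-D. GDF3, a TGF-beta family ligand of pluripotent cells, measured 1.22, 13.97 and 9.08 FPKM. SULT1E1, an estrogen sulfotransferase, measured 0.177, 1.49 and 8.23 FPKM in TE and 699, 44.3 and 69.3 in IT. Beside these, the summed level of the 17 ICM and hypoblast markers in the table was 227 FPKM in IV-D TE, 273 in NT-D TE and 361 in NT-LW TE, 2 of 8 measured markers were higher in both beside 1.68% of all genes, and NANOG was at 0. PDGFRA and GATA4 lay under 0.2 FPKM in all 3 libraries. Of 15 genes in the table from a list of pluripotency and lineage regulators that the study discusses, 6 were measured and ASZ1, which was lower, was the only one called in both. The study picked ASZ1 from embryos of these groups, so its direction is not independent evidence. Whether ICM cells in the TE pieces had a part in these values was not tested.

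Among the lower genes, TYR and HORMAD1 had the largest differences. TYR, tyrosinase of pigment cells (chr9:22517047-22604290), measured 34.8 FPKM in IV-D TE and 0.198 in NT-D TE and had no fragment in NT-LW TE, so that IV-D was at least 399-fold higher than the level of 3 fragments in NT-LW and 176-fold above NT-D (80.7 to 481). HORMAD1, a protein of the meiotic chromosome axis (chr4:98447298-98469650), measured 51.0, 0.558 and 0.955 FPKM. ASZ1, a germ cell protein of the piRNA pathway, measured 29.4, 1.03 and 3.89 FPKM, and SYCE3, a part of the synaptonemal complex, measured 24.02, 4.54 and 1.55. PLD6, another piRNA factor, went the other way with no fragment in IV-D TE and 4.14 and 5.02 FPKM in the clones, at least 13.7-fold and 16.7-fold higher. Both clone libraries were under 1 FPKM for TYR and HORMAD1, and both genes were above GATA3 in IV-D TE. The grouping as germ cell and pigment cell genes was made after the values were seen.

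Several of these genes were low in clones well before the blastocyst. At the 8-cell stage, in morulae and in IT alike, 11 of the 133 lower genes measured at all 3 stages were lower in both clones than the in vivo library of that stage, or 8.27%, against 30 of 6528 genes in all, or 0.460%. The 10 with a symbol were TYR, HORMAD1, ASZ1, PITPNC1, NOX3, NAA11, PRR19, TRIML2, CFAP61 and C18orf63. TYR measured 52.9 FPKM in IV-D and 0 and 0.157 in the clones at the 8-cell stage, and 22.9, 0.245 and 0 in morulae. NAA11, a copy of an acetyltransferase subunit known from testis, measured 41.5, 0 and 0.353 FPKM at the 8-cell stage and 9.17, 1.02 and 1.96 in TE. TRIML2 measured 154, 13.5 and 11.3 FPKM at the 8-cell stage and 107, 39.3 and 22.7 in TE. Each stage had an in vivo library of its own, and the order of the libraries at these stages follows from the choice of genes.

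Only 4 of the 111 higher genes, of 100 measured at the 3 stages, were higher in both clones at all 3, beside 0.337% of all genes. They were HMGN3, a nucleosome-binding protein with 4.07 FPKM in IV-D TE, 33.5 in NT-D TE and 16.8 in NT-LW TE, TLCD4, FBXO36 and a gene of 225 bases without a symbol, ENSSSCG00000035520. The last measured 55.9 FPKM in IV-D TE, 9815 in NT-D TE and 24925 in NT-LW TE, the largest difference of any member. Its level was also 4.17 FPKM in in vivo matured oocytes and 5199.9 in the in vitro matured oocytes used for cloning, and its highest level in any IV-D library, 55.9 FPKM, lay below its lowest in any clone library, 3182 FPKM.

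**Figure D4:**
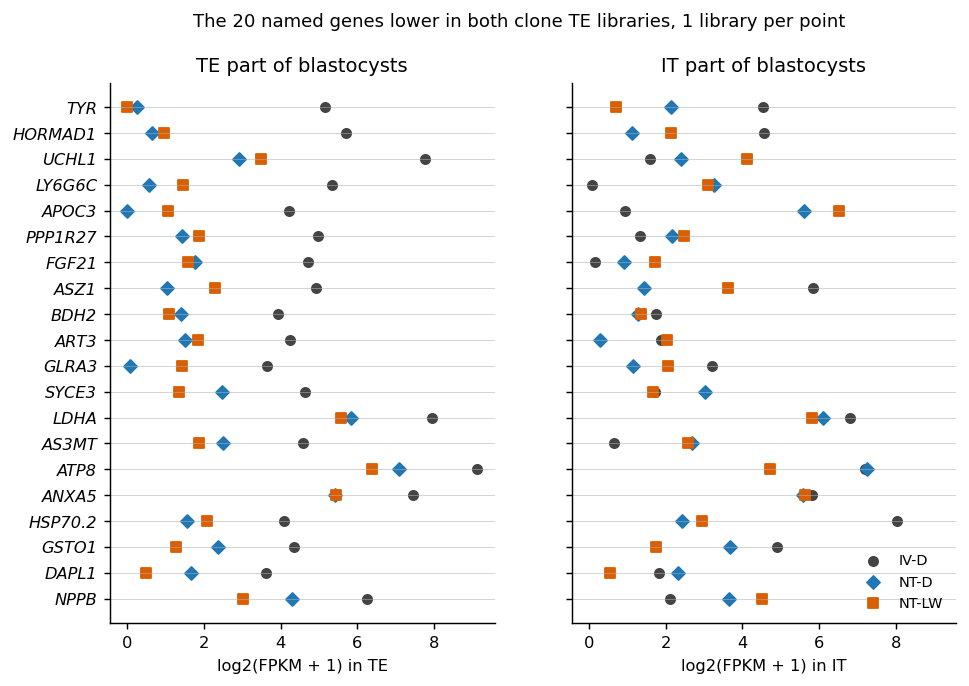
Level, as log2 of FPKM plus 1, of the 20 named genes with the largest differences among those lower in both clone TE libraries, in the TE (left) and IT (right) libraries, 1 library per point. In TE the IV-D point lies to the right of both clones for every gene by the choice of genes, whereas in IT the order varies.

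Stress and redox genes formed another part of the lower set. Of 25 measured members of the NRF2 and glutathione list 4 were lower in both clones, beside 2.70% of all genes, and none higher, with medians of −0.38 and −0.37. GSTO1, a glutathione transferase, measured 19.2 FPKM in IV-D TE, 4.11 in NT-D TE and 1.40 in NT-LW TE, and SRXN1, which repairs oxidized peroxiredoxins, measured 14.1, 3.32 and 1.15. GCLM, the regulatory subunit for glutathione synthesis, measured 23.1, 10.2 and 10.3 FPKM, and HMOX1, heme oxygenase, measured 46.7, 14.9 and 19.7. NFE2L2, the gene of NRF2 itself, measured 110, 117 and 109 FPKM. Outside the list, the autophagy genes SQSTM1 (87.1, 36.2 and 36.2 FPKM) and MAP1LC3B (184, 54.1 and 89.0) and the ferritin light chain FTL (43.7, 11.2 and 6.94), whose reads may be shared with copies, were lower too.

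Some cytosolic heat shock genes met the rule as well. Of 23 measured members 2 were lower in both clones, beside 2.70% of all genes, HSPB1 (9.02, 0.366 and 1.75 FPKM) and the co-chaperone BAG3 (7.33, 1.83 and 2.46), and none was higher. The medians of the list were −0.42 in NT-D and −0.83 in NT-LW. HSP70.2, an inducible HSP70 gene with close copies, is not 1 of these 2 but was also lower in both clones. It measured 16.0, 1.92 and 3.20 FPKM in TE. HSPA8, the constitutive member, was at 3433 FPKM in IV-D TE, 1.73-fold above NT-D and 2.72-fold above NT-LW, and was called in NT-LW alone.

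Glycolysis showed calls in both directions. LDHA, which makes lactate (chr2:40814163-40827284), measured 246 FPKM in IV-D TE, 55.9 in NT-D TE and 46.8 in NT-LW TE, 4.40-fold (4.15 to 4.66) and 5.25-fold (4.95 to 5.57) below IV-D. GPI, the second enzyme of the pathway, measured 92.2, 42.1 and 38.7 FPKM. GAPDH was higher at 255, 538 and 590 FPKM, although pseudogenes can share its reads. ENO1 measured 258, 236 and 161 FPKM and did not meet the rule. ACADM, a mitochondrial enzyme of fatty acid oxidation, was lower at 297, 91.4 and 63.6 FPKM, and ATP8 of the mitochondrial genome, which overlaps ATP6, measured 557, 135 and 82.7. ATP8 was the only 1 of 13 measured genes of the mitochondrial genome called in both clones. The medians of these 13 were −0.41 in NT-D and 0.39 in NT-LW.

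Membrane, signal and secreted proteins completed the named lower genes. ANXA1, a phospholipid-binding annexin, measured 822 FPKM in IV-D TE, 269 in NT-D TE and 126 in NT-LW TE, and ANXA5 measured 175, 41.5 and 42.1. NPPB, a natriuretic peptide, measured 75.2, 18.7 and 7.07 FPKM, and FGF21, a metabolic hormone, measured 25.3, 2.403 and 1.998. SERPINE2, a protease inhibitor of the conceptus list, measured 33.7, 13.6 and 4.97 FPKM, and PHLDA2, an imprinted gene that restrains placental growth, measured 43.3, 13.8 and 11.9. The conceptus list had 1 of 8 measured members higher and 1 lower in both clones, with medians of 0.65 (NT-D) and 0.75 (NT-LW). UCHL1, a ubiquitin hydrolase abundant in oocytes, measured 215, 6.51 and 10.2 FPKM. Its level in the other late IV-D libraries was 2.32 FPKM at the 8-cell stage, 1.30 in morulae and 2.03 in IT, and it was 447 FPKM in the in vivo matured oocyte. At the 8-cell stage, in morulae and in IT both clones lay above IV-D for UCHL1. NT-D and NT-LW measured 52.9 and 101 FPKM at the 8-cell stage, 158 and 35.6 in morulae and 4.25 and 16.4 in IT.

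Of the remaining lower genes in the named set, LY6G6C (39.2, 0.490 and 1.76 FPKM), PPP1R27 (30.2, 1.68 and 2.64), BDH2, a dehydrogenase of ketone metabolism (14.2, 1.61 and 1.11), ART3 (18.0, 1.86 and 2.57), AS3MT, an arsenic methyltransferase (23.0, 4.62 and 2.63) and DAPL1 (11.3, 2.16 and 0.397) were each above 11 FPKM in IV-D TE and at or below 4.62 FPKM in the clones. APOC3, an apolipoprotein, had 17.4 FPKM in IV-D TE, no fragment in NT-D TE and 1.09 FPKM in NT-LW TE. GLRA3 had 251, 1 and 43 fragments in IV-D, NT-D and NT-LW TE, a fold of 262 (46.6 to 10382) for the first pair.

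Lists of TE function and of gene regulation showed few calls in both clones. Among 16 measured TE markers LRP2 was higher and none was lower. No member was called in both clones among 25 measured genes of tight junctions, desmosomes and adhesion, 7 of DNA methylation, 15 of histone lysine methylation, 13 of histone acetylation, 46 of nuclear oxidative phosphorylation, 26 of the cell cycle, 32 of the proteasome, 17 of cholesterol synthesis, 9 of the hypoxia response, 7 of the interferon response and 4 of WNT signalling. Over all genes the shares called were 1.68% and 2.70%. Ribosomal protein genes had medians of −0.54 and −0.80 with RPS12 as the only member lower in both.

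**Figure D5:**
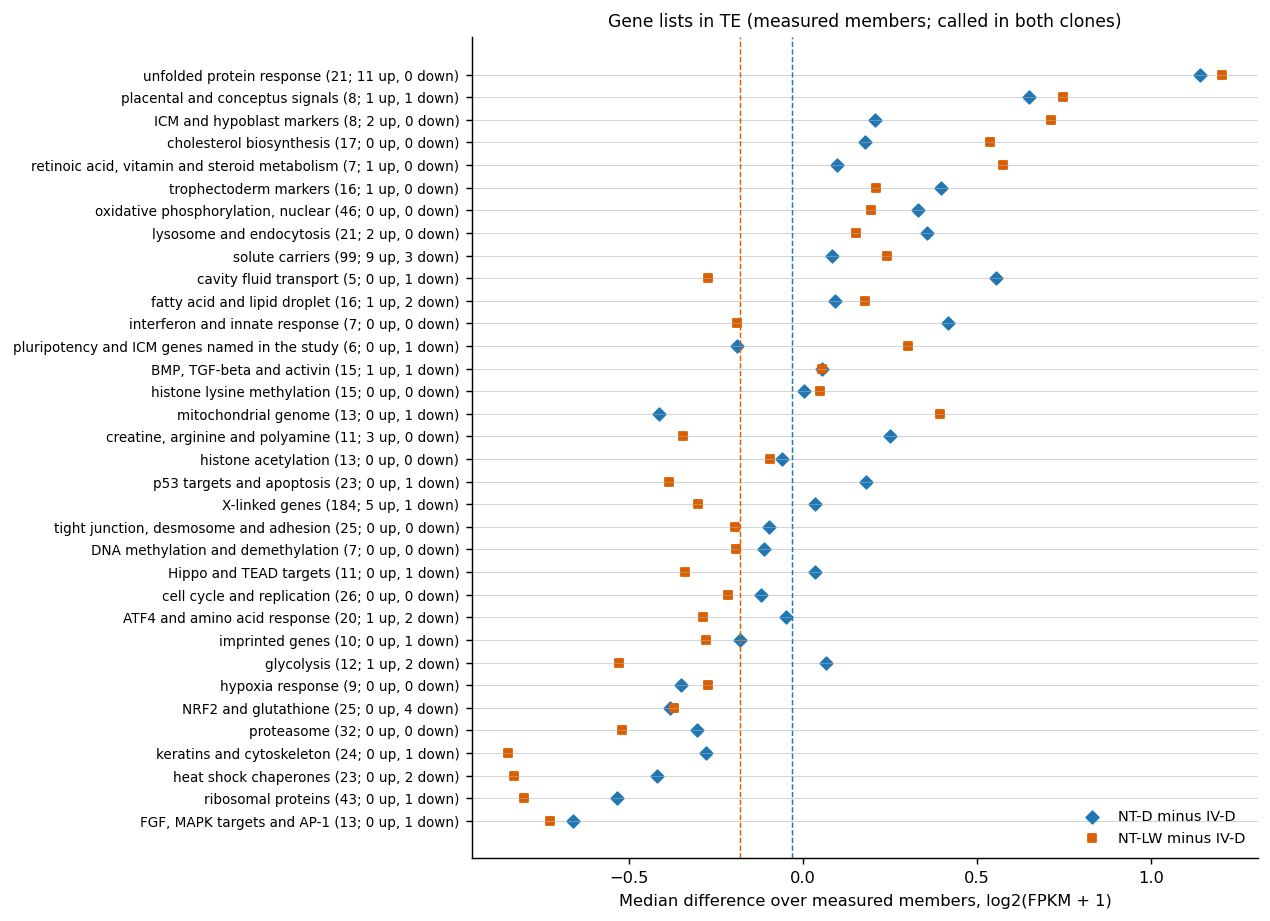
Median difference from IV-D TE of each gene list with at least 5 measured members, as log2 of FPKM plus 1, for NT-D (diamonds) and NT-LW (squares), over measured members; labels give their number and how many were called higher or lower in both. Dashed lines mark the medians of all measured genes, −0.03 and −0.18. The unfolded protein response list lies farthest to the right in both clones.

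The members were read as a set in the IT libraries, cut from blastocysts of the same groups. Of the 111 genes higher in TE, 110 were measured in IT, where 37 were again higher in both clones (33.6%) and 15 were lower (13.6%), beside 6.13% and 10.6% of all genes. Of the 178 genes lower in TE, 154 were measured, 35 were lower again (22.7%) and 19 were higher (12.3%). Median IT differences were 0.56 in NT-D and 0.68 in NT-LW for the higher genes and −0.36 and −0.39 for the lower ones, against −0.17 and −0.11 over all genes measured in IT. In morulae 6 of 106 measured higher genes were again higher (5.66%) and 5 lower (4.72%). Of 143 lower genes 26 were again lower (18.2%) and 15 higher (10.5%), beside 4.91% of all genes higher and 1.56% lower. In 8-cell embryos the set of higher genes had 12 of 102 with the same direction (11.8%) and 36 with the opposite one (35.3%). The set of lower genes had 44 (30.1%) and 18 (12.3%) of 146, beside 8.95% of all genes higher and 13.5% lower. The IV-D IT library stood apart from the other blastocyst libraries. Across the 8603 genes its log10 of FPKM plus 1 correlated with IV-D TE at r = 0.914 and with IV-D morulae at 0.956, while IT and TE of the same clone group correlated at 0.982 and 0.979. It had 288 FPKM of the heat shock gene DNAJB1 beside 15.1 and 21.2 in the clones, and 7.596 FPKM of ASNS, an ATF4 target, beside 435 and 516. The part of these features in the IT result was not tested.

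The threshold separates similar genes. Just inside it lay CLN8 (34.1, 69.2 and 76.5 FPKM in IV-D, NT-D and NT-LW) and RPS12 (689, 344 and 245), and just outside it SOCS1 (0.0804, 2.77 and 1.16) and NSD3 (4.68, 1.84 and 1.29).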

How the data were processed

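RNA of 23 libraries, 1 for each stage and group, was amplified by the authors with a SMART-Seq kit. Per the labels and the study's methods, reads were aligned with HISAT2 2.0.4 to Sscrofa11.1 and counted with HTSeq 0.9.1, and FPKM values of 8603 genes were deposited. The table is named as one of differentially expressed genes, so shares are shares of the table and not of all genes. The kits do not mark strand, so overlapping and antisense genes are uncertain.

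FPKM steps gave whole fragments for all 8603 genes (largest deviation 0.00426), and hence depths of 14952784 to 22991067 fragments. These served for exact 95% intervals of ratios (Clopper-Pearson) and for the floor of 3 fragments.

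A difference is that of log2(FPKM + 1), which understates changes of low genes. Members, 38 gene lists and motifs were chosen with earlier results of these data known. Named genes are the 20 in each direction with the largest smaller difference, a symbol and FPKM of at least 10 in IV-D TE or in both clones, a list of pluripotency and lineage genes the study discusses, list members called in both, and markers. Symbols with 1 RefSeq position numbered 6910 of 7371. Motifs were searched on both strands and are spelled out with their results; the E-box, TEAD, ATF4 (TGATGNAA), cyclic AMP (TGACGTCA), SREBP (TCACNCCAC), metal (TGCNCNCG), hypoxia and heat shock elements were searched as well and are not described. The ER stress response element contains a CCAAT box. Alternatives were another pseudocount, minimum level, limit and scaling, a counting interval, and IV-D IT as the control. Intervals were computed with scipy 1.17.1, tables with pandas 2.3.3, and sequences were read with pysam 0.24.0.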

Additional observations from a re-analysis of the deposited data

Results flagged for a closer look

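In 14 genes the clones lay on opposite sides of IV-D TE, each by more than 1 on the log2 scale. The difference between the clones was not tested. NT-LW minus NT-D was 7.87 for MT1X, a metallothionein with 13.8 FPKM in IV-D TE, 0.805 in NT-D TE and 420 in NT-LW TE, 4.14 for LYPLAL1 and 2.62 for SPATA22. It was −2.04 for RNASE12, −3.13 for MFAP2, −3.17 for KCNE1, −2.85 for TEX35, −2.46 for CLTRN and −3.06 for ARMCX1. Among genes without a symbol it was 7.64 for ENSSSCG00000023305, 5.90 for ENSSSCG00000023684, 4.92 for ENSSSCG00000028810, 3.77 for ENSSSCG00000024911 and −2.67 for ENSSSCG00000012100.

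In 10 of the named genes the clones differed from IV-D in opposite directions in TE and IT, which was likewise not tested. LRPAP1, described above but outside these 10, did so too, with an NT-D difference in IT of −1.53. Those higher in both clones in TE had NT-D differences in IT of −2.35 for OAT, −3.01 for CKB, −2.99 for SPIC, −3.95 for SULT1E1 and −3.35 for BAMBI. Those lower in TE had NT-D differences in IT of 3.19 for LY6G6C, 4.67 for APOC3, 2.04 for AS3MT, 1.54 for NPPB and 2.16 for ANXA1.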

How the results depend on the processing

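No paired analysis was possible because there was 1 library for each condition; for the same reason no replicate could be left out. A limit of 2 in place of 1 left 14 genes higher and 34 lower in both clones, 78 changed genes in NT-D against IV-D, 197 in NT-LW against IV-D and 97 between the clones, 2 members of the unfolded protein response list and 0 of the NRF2 list. A pseudocount of 0.1 gave 176 genes higher in both clones, 783 changed in NT-D and 1170 between the clones, where the main counts were 491 and 763. With IV-D IT as the control in place of IV-D TE, an alternative chosen after seeing the data, 344 genes were higher and 995 lower in both clone TE libraries. Of the 111 higher genes 40 were still higher and 12 were lower, and of the 178 lower genes 57 were still lower and 10 were higher. Rescaling each library to the same sum changed the NT-LW split to 428 higher and 971 lower, and trimmed-mean scaling to 567 and 522. Median-ratio scaling kept 109 of the 111 higher and 153 of the 178 lower genes, and a counting interval outside 2-fold kept 93 and 150. Of the values of the 20 named genes in each direction under another pseudocount and both rescalings, 184 moved by less than 0.2 on the log2 scale and 56 by more, and none of these was reversed.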

Other observations

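Cholesterol synthesis genes showed a pattern in 1 clone group. Of 17 measured members 5 were higher in NT-LW TE than in IV-D TE and none in NT-D TE, with median differences of 0.54 and 0.18. In IT 8 members were higher in both clones. Keratin and cytoskeleton genes had 10 of 24 measured members lower and 3 higher in NT-LW TE. In NT-D TE 1 was lower and 0 were higher, and the medians were −0.85 in NT-LW and −0.28 in NT-D. The TE keratins KRT8 and KRT18, given above, lay above IV-D in both clones. Ribosomal protein genes had 11 of 43 lower in NT-LW TE and 2 in NT-D TE. Over all genes 6.26% were higher and 10.2% lower in NT-LW, and 3.13% and 4.23% in NT-D. Whether the clones differ in these lists was not tested, since each had 1 library.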
